A study of Homo sapiens with 6 samples.

Results

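The interferon response genes described here are 38 protein-coding genes: the transcription factors STAT2, IRF1, IRF2, IRF3, IRF4, IRF5, IRF7, IRF8 and IRF9, the RNA sensors RIGI and IFIH1, and 27 genes that interferon induces. They were chosen by name and not by their values, out of 19974 protein-coding genes on chromosomes 1 to 22 and X. A gene counted as marked when a peak overlapped its body or the 5 kb on either side. All 38 could be read for trimethylation of lysine 4 of histone H3 (H3K4me3), and 32 of them, among 14728 genes, for dimethylation (H3K4me2), because both H3K4me2 lists hold only chromosomes 1 to 3 and 10 to 22 in full and chromosome 4 up to position 185623562.

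The marks were mapped by chromatin immunoprecipitation and sequencing in K562, an established human line with the BCR-ABL1 fusion, derived from chronic myeloid leukaemia in blast crisis. The cells were infected with a control hairpin (shControl) or with a hairpin against Staufen 2 (shStau2), an RNA-binding protein. Each of the 4 combinations of mark and hairpin is 1 library of 1 line, and each hairpin has 1 input library. With no replicates there is no spread between samples and no test, so every difference below describes these libraries. In bulk chromatin, a mark present in more cells and more of the mark in each cell cannot be told apart.

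Interferons bind receptors whose Janus kinases phosphorylate STAT proteins, and STAT2 then joins IRF9 in a complex that binds interferon-stimulated response elements in promoters. The genes switched on in this way block virus entry, bind or degrade viral RNA, and feed back on the signal. H3K4me3 marks active gene starts, and H3K4me2 marks starts and enhancers, including starts that carry little H3K4me3.

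The core of the interferon-stimulated response element, spelled GAAA, any 2 bases, GAAA, was searched on both strands of the RefSeq promoter windows of GRCh38.p14, which run from 250 bases before to 50 bases after a start. Windows were held for 29 of the 38 genes, with 41 promoters in all, and the genes without one were OAS2, OASL, USP18, IRF3, IFIT2, IRF7, MX2, IFITM2 and IRF2. The 6 promoters below are shown because their marks differ. DDX60, IFIT3 and IRF5 had H3K4me3 under shStau2 only, IFIT1 and OAS3 had it under both hairpins, and IFI27 had H3K4me2 without H3K4me3 under both. Each is written 5′ to 3′ along the strand of its gene, and capitals mark matches to this core or to its reverse complement, of which IRF5 has none.
DDX60, chr4:168318703-168319002, minus strand: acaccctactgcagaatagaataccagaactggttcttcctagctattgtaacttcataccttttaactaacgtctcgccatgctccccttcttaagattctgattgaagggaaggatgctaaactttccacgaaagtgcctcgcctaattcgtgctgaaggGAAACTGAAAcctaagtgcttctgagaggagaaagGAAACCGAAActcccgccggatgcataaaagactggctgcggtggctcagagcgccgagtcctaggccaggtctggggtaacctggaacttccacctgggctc
IFIT3, chr10:89327747-89328046, plus strand: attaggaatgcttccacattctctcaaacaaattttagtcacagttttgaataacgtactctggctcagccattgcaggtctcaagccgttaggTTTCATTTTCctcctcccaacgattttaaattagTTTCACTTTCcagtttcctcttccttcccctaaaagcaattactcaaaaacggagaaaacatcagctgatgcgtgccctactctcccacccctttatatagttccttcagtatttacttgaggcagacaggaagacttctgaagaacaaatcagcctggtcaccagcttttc
IRF5, chr7:128937967-128938266, plus strand: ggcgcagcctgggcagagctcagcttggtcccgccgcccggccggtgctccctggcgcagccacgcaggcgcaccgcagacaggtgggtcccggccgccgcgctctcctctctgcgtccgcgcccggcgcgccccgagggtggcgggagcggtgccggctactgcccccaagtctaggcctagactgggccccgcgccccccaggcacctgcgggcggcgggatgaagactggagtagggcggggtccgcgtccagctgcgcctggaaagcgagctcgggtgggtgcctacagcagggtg
IFIT1, chr10:89392373-89392672, plus strand: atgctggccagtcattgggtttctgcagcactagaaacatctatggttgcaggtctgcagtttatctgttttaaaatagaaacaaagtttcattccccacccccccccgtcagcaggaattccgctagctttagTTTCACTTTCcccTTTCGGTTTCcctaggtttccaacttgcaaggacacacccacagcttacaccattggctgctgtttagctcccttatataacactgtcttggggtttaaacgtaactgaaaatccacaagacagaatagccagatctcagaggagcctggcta
OAS3, chr12:112938224-112938523, plus strand: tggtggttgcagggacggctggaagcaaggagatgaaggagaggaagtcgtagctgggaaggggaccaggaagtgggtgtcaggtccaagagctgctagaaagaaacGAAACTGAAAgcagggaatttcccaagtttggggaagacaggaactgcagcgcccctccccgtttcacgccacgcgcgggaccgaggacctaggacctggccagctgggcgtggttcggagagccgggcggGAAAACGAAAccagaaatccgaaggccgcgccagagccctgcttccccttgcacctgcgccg
IFI27, chr14:94110486-94110785, plus strand: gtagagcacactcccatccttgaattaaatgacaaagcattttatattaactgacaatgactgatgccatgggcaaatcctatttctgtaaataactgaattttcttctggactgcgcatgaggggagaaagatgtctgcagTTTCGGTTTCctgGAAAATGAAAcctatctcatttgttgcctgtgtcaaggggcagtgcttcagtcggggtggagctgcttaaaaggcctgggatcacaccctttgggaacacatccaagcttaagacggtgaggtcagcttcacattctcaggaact
Counted from the start, with bases before it negative, the DDX60 matches begin at -88 and -53 and those of IFIT3 at -156 and -122. Those of IFIT1 begin at -116 and -103, those of OAS3 at -143 and -12, and those of IFI27 at -108 and -95.

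The core was present in 21 of the 41 promoters, a share of 51.2%, and in 17 of the 29 genes. Over all 22132 promoters the share was 3.17%. The longer form, the core followed by C, was in 19 of the 41 promoters (46.3%) and in 0.791% of all promoters. The core TTCNNNGAA of the gamma-activated site, searched in the same way, was in 9 of the 41 (22%) and in 6.79% of all, and 4 of its 9 matches overlapped a response element match. These genes are known for being induced by interferon, so the matches describe the set and say nothing of what bound there.

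The libraries differed in overall enrichment, which touches every comparison of hairpins below. The ChIP libraries held 26221869 to 30744332 tags after duplicates were removed, yet the deposited shStau2 H3K4me3 list had 27577 peaks against 22280 in shControl, of which 27333 and 22041 lie on chromosomes 1 to 22 and X and were compared. For the 15552 H3K4me3 peaks with exactly 1 partner in the other list, fold enrichment had a median of 15.0 with the control hairpin and 31.0 with shStau2, and the ratio of these medians was 2.07. For 40029 such H3K4me2 pairs the medians were 7.03 and 8.46, with a ratio of 1.2. Fold enrichment, as the authors deposited it peak by peak, sets the pileup of fragments at the summit against the local background. H3K4me3 peaks were listed under both hairpins at 7 of 7 erythroid genes of this line, such as GATA1, beside 69.6% of all genes. HBG1 and HBG2, counted among the 7, had the same fold enrichments and may not be separate observations. Of the genes of other cell types reported here, CD3E had none, and PAX5 and ALB had one under shStau2 only.

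H3K4me3 was listed under both hairpins at 26 of the 38 interferon response genes, under shStau2 only at 6, under shControl only at 0, and in neither list at 6. Over all genes the shares were 69.6% in both, 5.55% in shStau2 only, 0.0451% in shControl only and 24.8% in neither, against 68.4%, 15.8%, 0% and 15.8% of the interferon response genes. The share in both lists was thus near that of all genes. The share in shStau2 only was higher, a difference of a few genes in 1 pair of libraries. By role, 6 of 9 transcription factors, both sensors and 18 of 27 effectors had the mark in both lists, and 1 factor and 5 effectors had it in shStau2 only.

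**Figure D1:**
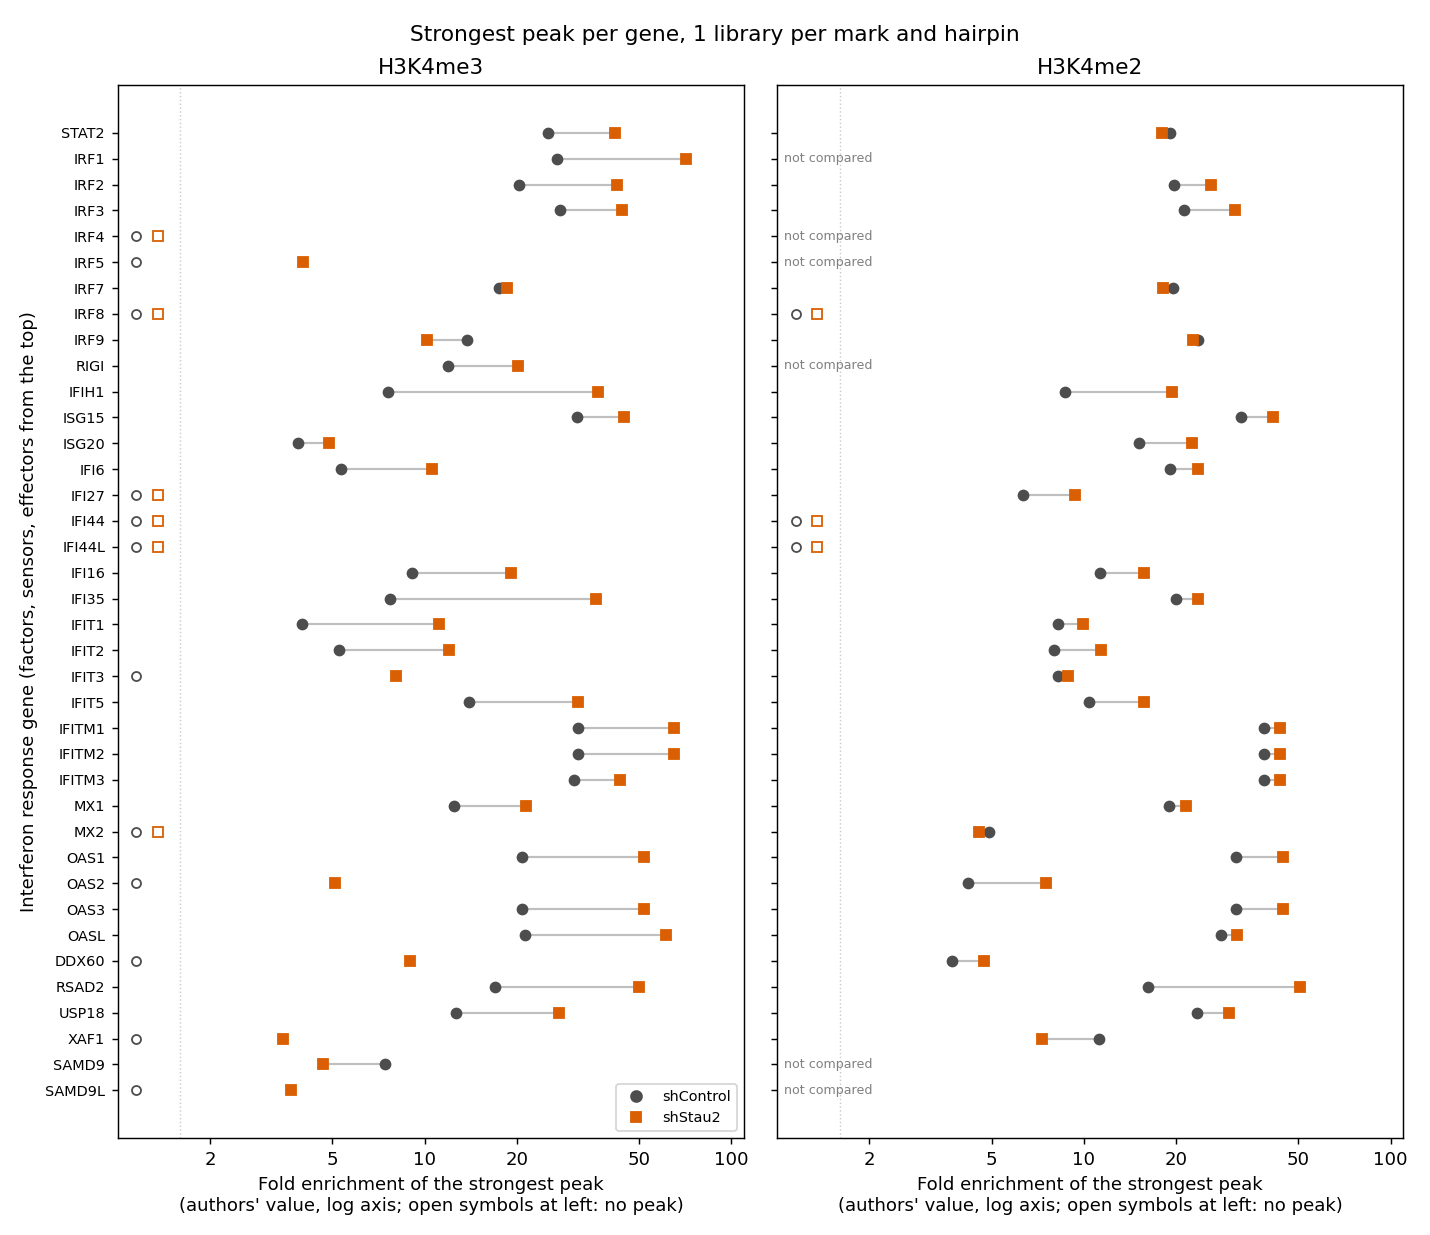
Fold enrichment of the strongest peak (log axis) in the gene body with 5 kb flanks for each of the 38 genes, H3K4me3 left and H3K4me2 right, with circles for shControl and squares for shStau2. Each symbol is 1 library, and open symbols at the left edge stand for no peak. IRF5, IFIT3, OAS2, DDX60, XAF1 and SAMD9L have a filled H3K4me3 symbol for shStau2 only.

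Among the transcription factors, IRF1, an activator that is itself induced by interferon, had its strongest H3K4me3 peak at its start, at 27.1-fold under shControl and 71.0-fold under shStau2. IRF3, which is phosphorylated after viral RNA or DNA is sensed, read 27.7-fold and 44.0-fold in a peak that also lies at an end of BCL2L12. STAT2 read 25.2-fold and 41.8-fold at its start, close to an end of APOF. In these 3 genes the shStau2 value was the higher one.

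IRF2, a repressor that competes with IRF1 for the same sites, had 2 H3K4me3 peaks under shControl, the strongest at 20.3-fold, and 1 peak of 4035 bases under shStau2 at 42.4-fold. Its covered bases, which are the bases of the window under peaks, were 3062 and 4035. IRF7, the main inducer of interferon alpha genes, differed little in fold enrichment, with 17.4-fold and 18.6-fold at a peak near an end of CDHR5. IRF9, the DNA-binding subunit of the STAT2 complex, had the lower fold enrichment under shStau2, 13.7-fold against 10.2-fold, in a peak at its start within 1 kb of an end of RNF31.

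The remaining 3 factors are known mainly from blood lineages other than the erythroid one. IRF5, a factor of macrophages and B cells, had no H3K4me3 peak under shControl and 1 under shStau2, at chr7:128937953-128938417, with a fold enrichment of 4.01 over 465 bases. IRF4, a lymphoid factor, and IRF8, a myeloid and B cell factor, had no H3K4me3 peak under either hairpin. IRF8 also had no H3K4me2 in either list. At IRF4, whose chromosome the shStau2 H3K4me2 list does not reach, the shControl list held 1 H3K4me2 peak of 5.81-fold at chr6:408207-409068, 16749 bases from the start.

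The 2 sensors are RNA helicases that detect viral RNA in the cytosol. RIGI read 11.9-fold under shControl and 20.2-fold under shStau2 for H3K4me3 at its start. IFIH1, also known as MDA5, read 7.60-fold and 36.8-fold, and the bases under its peak were 746 and 1467. The IFIH1 ratio of 4.84 was the highest of the 26 genes marked in both lists, in a peak near an end of GCA.

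Of the effectors, ISG15, a ubiquitin-like modifier, had a peak at its own start with 15.0-fold under shControl and 31.1-fold under shStau2. The strongest peak in its window lay at AGRN, the neighbouring gene, with 31.3-fold and 44.7-fold. USP18, which removes ISG15 from proteins and dampens receptor signalling, read 12.6-fold and 27.5-fold. ISG20, an exonuclease, was among the weakest, at 3.86-fold and 4.87-fold.

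The IFIT proteins bind viral RNA, and their genes form a cluster on chromosome 10. IFIT1 read 4.0-fold over 200 bases under shControl and 11.2-fold over 719 bases under shStau2. IFIT2 read 5.28-fold and 12-fold, and IFIT5 read 14-fold and 31.6-fold at a peak near an end of LIPA. IFIT3 had no peak under shControl and one of 8.05-fold over 673 bases under shStau2, at chr10:89327682-89328354. In this cluster every gene had its higher H3K4me3 value under shStau2, as did 24 of the 26 genes marked in both lists. The other 2 are 7.69% of the 26, beside 1.97% of all genes marked in both lists, so a higher value was the usual case.

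The IFITM genes, whose products block virus entry at membranes, lie side by side on chromosome 11 and shared peaks. IFITM1 and IFITM2 had the same strongest H3K4me3 peak, which lies between them, at 31.7-fold under shControl and 64.9-fold under shStau2. The peaks over the genes themselves read 21.3-fold and 43.2-fold at IFITM1, 5.44-fold and 13.2-fold at IFITM2, and 30.8-fold and 37.1-fold at IFITM3. All 3 genes thus read higher under shStau2. The strongest shStau2 peak in the IFITM3 window was the one over IFITM1, so the value plotted for IFITM3 sets 30.8-fold against 43.2-fold at peaks that do not overlap each other. The largest gains in covered bases among the 38 genes were here, with 7593 and 9297 bases at IFITM1, 4959 and 6393 at IFITM3, and 3477 and 4610 at IFITM2. The windows of IFITM2 and IFITM3 overlap that of IFITM1, so these are not separate observations. In all, 10 of the 38 genes shared part of a window with another of them. No source used here says how reads that align to several near-identical copies were treated, which bears on the IFITM genes.

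The OAS genes make the short adenylate chains that activate RNase L. OAS3 read 20.8-fold under shControl and 51.8-fold under shStau2 at its start. The entry for OAS1 is the edge of that same peak, with 73 and 149 bases inside its window, and OAS1 had no H3K4me3 within 1 kb of its own start. OAS2 had no peak under shControl and one of 5.12-fold over 611 bases under shStau2, at chr12:112978219-112978829.

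OASL, a family member that lacks the synthetase activity, had H3K4me3 in both lists over the window with 5 kb flanks. At its higher-coordinate end only shStau2 had a peak, chr12:121038847-121039172, of 3.87-fold over 326 bases. With flanks of 1 kb in place of 5 kb, OASL joined the genes with H3K4me3 under shStau2 only. In windows of 1 kb around the start, or around both gene ends where no start is known, 7 genes including OASL were listed under shStau2 only, beside 3.74% of all genes. There 23 genes were marked in both lists, beside 61.5%, 0 under shControl only, beside 0.0801%, and 8 in neither, beside 34.7%. Over the whole set, the strongest shStau2 H3K4me3 peak lay within 1 kb of an end of another gene in 12 of 32 genes (37.5%), and in 32.4% of all genes with a peak.

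MX1, a dynamin-like GTPase that blocks viral ribonucleoproteins, read 12.5-fold and 21.3-fold. RSAD2, or viperin, an enzyme that makes a chain-terminating nucleotide, read 16.9-fold and 49.8-fold in a start region that it shares with CMPK2. Within 1 kb of the other annotated start of RSAD2, only shStau2 had an H3K4me3 peak. That peak, chr2:6877402-6877652, read 4.12-fold over 251 bases. IFI35 read 7.72-fold and 36.2-fold. IFI6, an antiviral protein of the endoplasmic reticulum, read 5.34-fold and 10.5-fold. IFI16, a nuclear DNA sensor, had no H3K4me3 within 1 kb of an annotated start, and its peak of 9.12-fold and 19.1-fold lay about 12360 bases downstream of the nearest start under shControl. SAMD9, a restriction factor of poxviruses, was the other gene besides IRF9 with the lower fold under shStau2, at 7.45-fold and 4.65-fold.

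The effectors IFI27, IFI44, IFI44L and MX2 had H3K4me3 in neither list, and no peak of the mark reached within 5 kb of them. Together with IRF4 and IRF8 they make up the 6 unmarked genes.

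The 6 genes listed under shStau2 only had peaks of modest height. They were DDX60, an RNA helicase related to the sensors, at 8.96-fold over 392 bases, IFIT3, OAS2 and IRF5 as given above, SAMD9L, the paralogue of SAMD9, at 3.66-fold over 258 bases, and XAF1, a proapoptotic partner of XIAP, at 3.45-fold over 560 bases. For comparison, 6039 H3K4me3 peaks were in the shStau2 list only within the region of both H3K4me2 lists, with a median of 5.30-fold and a width of 321 bases. The DDX60 peak, chr4:168318442-168318833, covers its start and part of the promoter printed above. The XAF1 peak lay at chr17:6755653-6756212 and the SAMD9L peak at chr7:93147626-93147883, with its summit 651 bases downstream of the start. None of the 6 peaks overlapped an H3K4me3 peak of the shControl list. This follows from the call itself, because each peak lies inside the window of its gene.

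These calls depend on the threshold. When shStau2 peaks had to pass a fold enrichment of 8.20 and shControl peaks one of 3.97, in the proportion of the matched peaks, DDX60 alone stayed listed under shStau2 only, which is 1 of 38 genes or 2.63%, beside 1.17% of all genes. SAMD9 was then listed under shControl only, again 1 of 38, beside 1.29% of all genes, while 24 genes were marked in both lists, beside 67.8%, and 12 in neither, beside 29.8%. On that scale each hairpin thus had 1 gene listed in it alone, in place of 6 and 0. With equal numbers of peaks in both lists, DDX60 and IFIT3 were listed under shStau2 only (5.26%, beside 3.15% of all genes), and ISG20 and SAMD9 under shControl only (5.26%, beside 0.391%). At that setting 24 genes were marked in both lists, beside 69.2%, and 10 in neither, beside 27.2%.

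Peaks at the start itself could be read in the 29 genes with a promoter window. H3K4me3 lay within 1 kb of a start in 17 of 29 (58.6%) under shControl, beside 64.3% of all genes, and in 22 of 29 (75.9%) under shStau2, beside 67.7%. The mark was at the start under both hairpins in 17 genes, beside 64.2%, under shControl only in 0, beside 0.0885%, and under neither in 7, beside 32.2%. The 5 genes that differed were DDX60, IFIT3, IRF5, XAF1 and SAMD9L (17.2%, beside 3.51% of all genes). All 5 genes listed under shStau2 only over the wider window, and with a known start, had their peak within 1 kb of it, beside 47.3% of the 814 such genes in all.

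**Figure D2:**
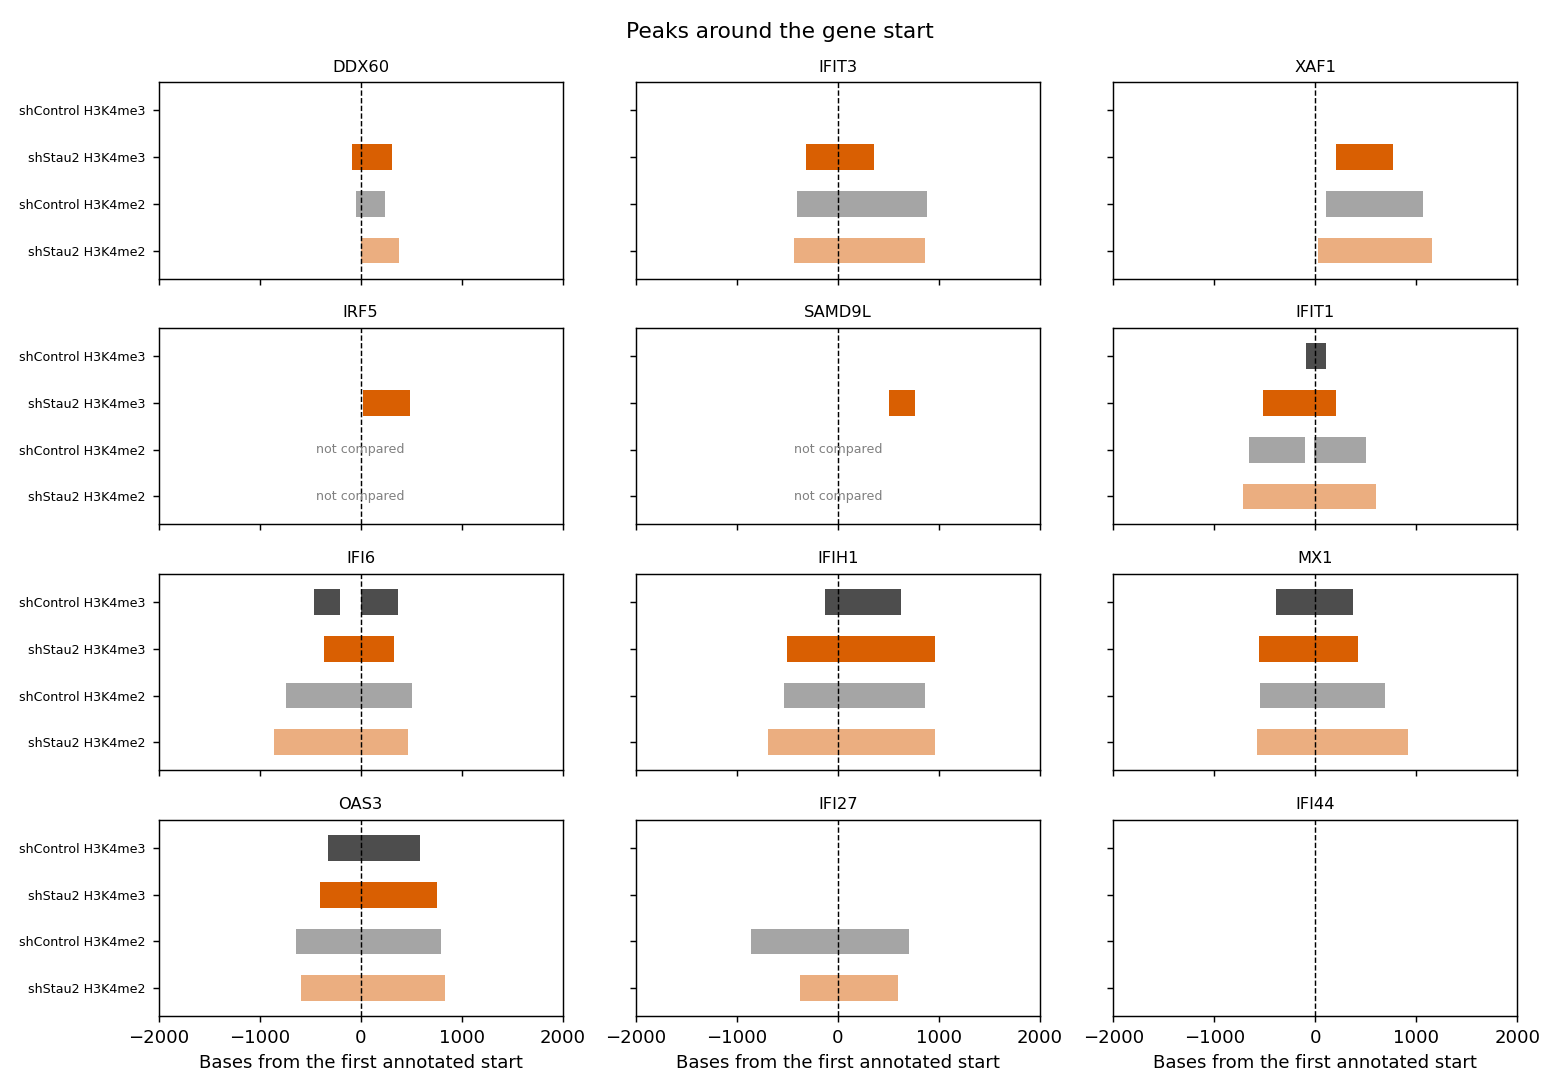
Peaks drawn to scale around the first annotated start (dashed line) of 12 genes, in bases from the start and in the direction of transcription, with 1 row per library. At DDX60, IFIT3 and XAF1 the H3K4me3 bar is present in the shStau2 row only while H3K4me2 bars are present in both rows, at IFI27 only H3K4me2 bars are present, and at IFI44 there are no bars.

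The pileup, the other deposited measure of height, did not show the 2 exceptions. In SAMD9 the pileup was 18.4 under shControl and 40.9 under shStau2, and the background term, which is the pileup plus 1 divided by the fold enrichment, was 2.6 and 9.0. In IRF9 the pileup was 31.8 and 49.9, with background terms of 2.39 and 5.0. In both genes the pileup was higher and the fold enrichment lower under shStau2, while the local background was higher.

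The opposite was seen at the largest ratios. IFI35 had pileups of 45.3 and 93.9 with background terms of 6.0 and 2.62, and IFIH1 had pileups of 29.4 and 90.1 with 4.0 and 2.48. At IRF7 the pileup was 42.3 and 73.4 while the fold enrichment was nearly level, with background terms of 2.48 and 4.0. The ratio of fold enrichment thus ran from 0.624 to 4.84 over the 26 genes, and the ratio of pileups from 1.33 to 3.27. The pileup was lower under shStau2 in 0 of 26, beside 0.266% of all genes, and the fold enrichment in 2 of 26 (7.69%), beside 1.97%.

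**Figure D3:**
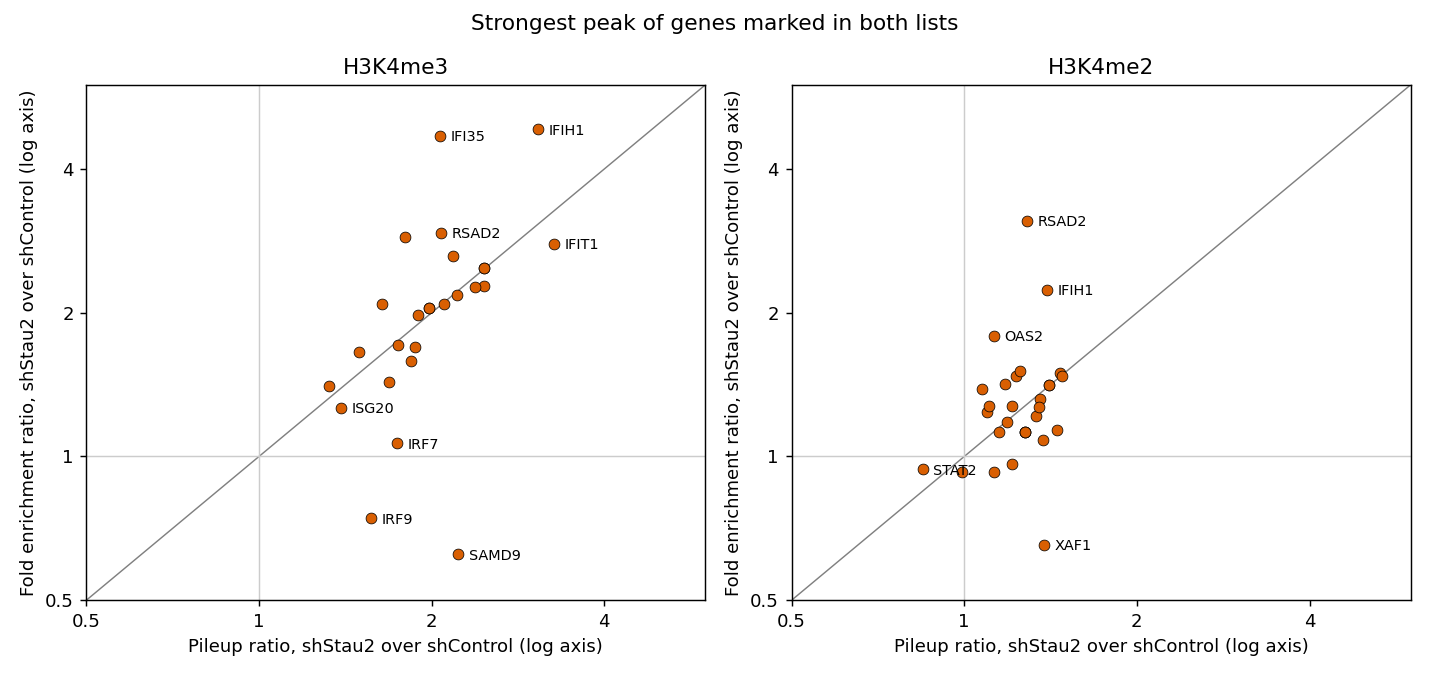
Ratio of fold enrichment (vertical, log axis) against ratio of pileup (horizontal, log axis), shStau2 over shControl, at the strongest peak of each gene marked in both lists, 26 for H3K4me3 and 29 for H3K4me2. Points on the diagonal have nearly the same local background under both hairpins, and SAMD9, IFI35 and IRF9 on the left and RSAD2 and XAF1 on the right lie farthest from it.

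As a set, the interferon response genes followed the shift of all genes. The median H3K4me3 ratio was 2.07 over the 26 genes and 2.01 over all 13897 genes marked in both lists, and the median pileup ratios were 1.98 and 1.99. The fold ratio was above the matched-peak ratio in 13 of 26 genes (50%), beside 45.2% of all genes. More bases were covered under shStau2 in 32 of the 32 genes with a peak, beside 98.4% of all genes, and fewer in 0, beside 1.59%. These shares were near the background and are not a result about these genes.

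Fewer bases were covered per gene than over all genes, which is a sum over the window and not a width of single peaks. The median of H3K4me3 covered bases was 746 under shControl and 971 under shStau2 over the 32 genes, and 1925 and 2431 over all genes with a peak. Genes listed under shStau2 only count as 0 under shControl, which holds for 6 of the 32 and for 1108 of all 15014. The window of the median gene measured 28487 bases in the set and 34164 over all genes. Covered bases were at least 1.5 times higher under shStau2 in IFI16, IFIT1, IFIT2, OAS1, IFIH1 and SAMD9, 6 of 26 genes (23.1%), beside 18.4% of all genes, and at least 1.5 times lower in 0, beside 0.0216%.

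**Figure D4:**
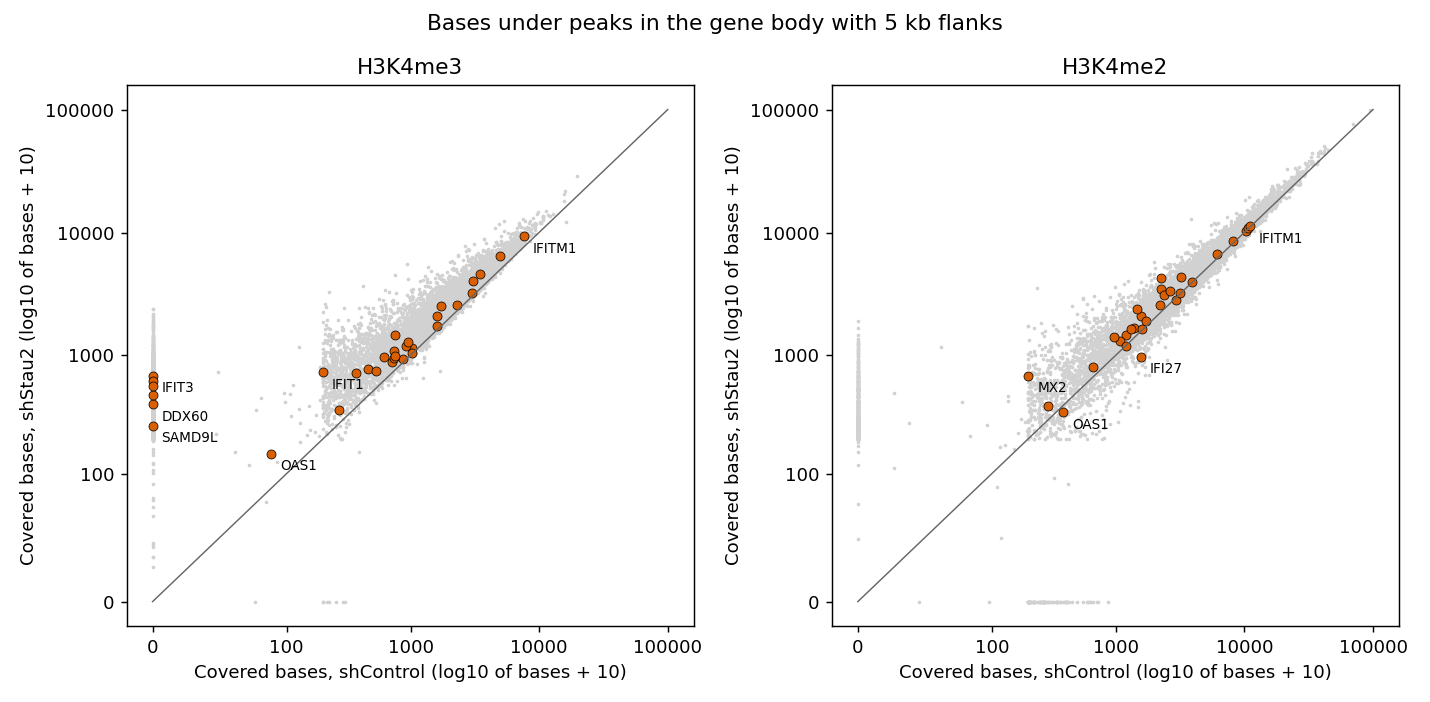
Bases under peaks in the window of each gene, shControl on the horizontal and shStau2 on the vertical axis, on a log10 scale of bases plus 10, with the interferon response genes as large points over all protein-coding genes in grey. For H3K4me3 all 32 points lie above the line of equality, and for H3K4me2 4 of 29 lie below it.

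IRF1, IRF4, IRF5, RIGI, SAMD9 and SAMD9L lie outside the region that both H3K4me2 lists cover. H3K4me2 was listed under both hairpins at 29 of the 32 genes (90.6%), beside 83.9% of all genes in the region. It was listed under shStau2 only at 0, beside 2.57%, under shControl only at 0, beside 0.591%, and in neither list at IFI44, IFI44L and IRF8 (9.38%), beside 12.9%. No gene of the set thus differed between hairpins in the presence of H3K4me2, and few would at these background shares. At a known start, H3K4me2 was listed in 19 of 23 genes (82.6%) under each hairpin, beside 72.7% of all genes under shControl and 74.3% under shStau2. The strongest shStau2 peak lay within 1 kb of an end of another gene in 14 of 29 (48.3%), beside 30.2%.

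Under shControl, 6 of 32 genes (18.8%) carried H3K4me2 without H3K4me3, beside 13.7% of all genes. They were IFI27, IFIT3, MX2, OAS2, DDX60 and XAF1. Under shStau2 there were 2 (6.25%), IFI27 and MX2, beside 10.8%. All 4 genes with H3K4me3 under shStau2 only that lie in the region had H3K4me2 under shControl, beside 90.6% of the 747 such genes. The shStau2 H3K4me3 peak itself overlapped a shControl H3K4me2 peak in all 4, as did 86.1% of the 6039 peaks listed under shStau2 only. Both marks were present in 23 genes under shControl, beside 70.8% of all genes, and in 27 under shStau2, beside 75.7%. H3K4me3 without H3K4me2 was found in 0 genes under either hairpin, beside 0.0883% and 0.197%, and neither mark in 3 genes under each, beside 15.4% and 13.3%. Of the 5 genes with H3K4me3 in neither list, 2 had H3K4me2 under shControl, beside 38% of such genes. H3K4me2 under shControl was thus about as common over all such genes and is not particular to this set.

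At these 4 genes H3K4me2 was weak to moderate. DDX60 read 3.72-fold over 288 bases under shControl and 4.72-fold over 376 bases under shStau2. IFIT3 read 8.21-fold and 8.88-fold, OAS2 read 4.20-fold and 7.52-fold, and XAF1 read 11.2-fold and 7.32-fold. XAF1 had the lowest H3K4me2 ratio of the set, 0.653, while its pileup was 25.9 and 35.6 and its background term 2.39 and 5.0.

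IFI27, a mitochondrial protein strongly induced by interferon alpha, had H3K4me2 over its start of 6.32-fold and 9.32-fold, and peaks covered 1567 bases under shControl and 969 under shStau2. MX2, which blocks nuclear entry of retroviruses, read 4.92-fold over 200 bases and 4.56-fold over 673 bases. IFI27 thus had the higher peak and the narrower domain under shStau2, and it was the 1 gene of 29 (3.45%) with at least 1.5 times fewer covered bases, beside 0.987% of all genes.

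The median H3K4me2 fold ratio was 1.27 over the 29 genes and 1.24 over all genes, with 17 of 29 (58.6%) above the matched-peak ratio, beside 55.6% of all genes. RSAD2 had the highest ratio, 3.11, from 16.2-fold to 50.4-fold, while its pileup was 96.2 and 123.9 and its background term 6.0 and 2.48. This peak lies in the start region shared with CMPK2, which had the same fold enrichments and is counted among the other pathway genes below. At the other annotated start of RSAD2, H3K4me2 read 11.2-fold under shControl and 11.5-fold under shStau2. Fold enrichment was lower under shStau2 in MX2, STAT2, IRF7, IRF9 and XAF1, 5 of 29 genes (17.2%), beside 18.8%. The pileup was lower in 2 of these, MX2 and STAT2 (6.9%), beside 9.47%, and the strongest STAT2 peaks of the lists do not overlap each other.

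H3K4me2 covered bases were higher under shStau2 in 25 of 29 genes (86.2%), beside 80.2% of all genes, and lower in 4 (13.8%), beside 19.7%. The largest increases were at USP18, with 2265 and 4231 bases, IFI16, with 2262 and 3478, and STAT2, with 3196 and 4371. Besides IFI27, the decreases were small, with 2954 and 2842 bases at ISG15, 10305 and 10257 at RSAD2, and 384 and 336 at OAS1. The OAS1 entry is again the edge of the peak at the OAS3 start, and with flanks of 1 kb OAS1 had H3K4me2 in neither list. Under shStau2, 1 H3K4me2 peak of 13447 bases spanned IFITM1, IFITM2 and IFITM3. Under shControl a peak of 11447 bases spanned IFITM1 and IFITM3, and IFITM2 carried a separate peak of 1508 bases at 7.25-fold. MX1, MX2, IFI16 and USP18 had at least 1.5 times more covered bases, 4 of 29 genes (13.8%), beside 7.9% of all genes.

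Genes with and without a match to the response element core were found among both the marked and the unmarked. Only exact matches were counted, so a gene without one may still hold a variant of the element. Of the 17 genes with a match to the core, 12 had H3K4me3 at a start under shControl and 14 under shStau2. Of the 12 genes without a match, 5 had it under shControl and 8 under shStau2. DDX60 and IFIT3, with 2 matches each in the promoters printed above, were among the genes listed at the start under shStau2 only, and so were IRF5, XAF1 and SAMD9L, which have no match. IFI27, IFI44 and IFI44L hold matches and had no H3K4me3. Over all genes, H3K4me3 at a start was listed in 56.2% of those with a match under shControl and 59.9% under shStau2, and in 64.6% and 68.0% of those without.

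Base composition moved with the mark. The ratio of observed to expected CpG, taken from the promoter with the highest value of each gene, had a median of 0.421 over the 29 genes and 0.799 over all genes. It was 0.630 over the 17 genes with H3K4me3 at a start under both hairpins, 0.421 over the 5 with it under shStau2 only, and 0.235 over the 7 with none. Over all genes the same medians were 0.879, 0.736 and 0.310. The order was the same in both, and the interferon response promoters were poorer in CpG in each class. Whether CpG content accounts for the lower number of covered bases was not tested.

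**Figure D5:**
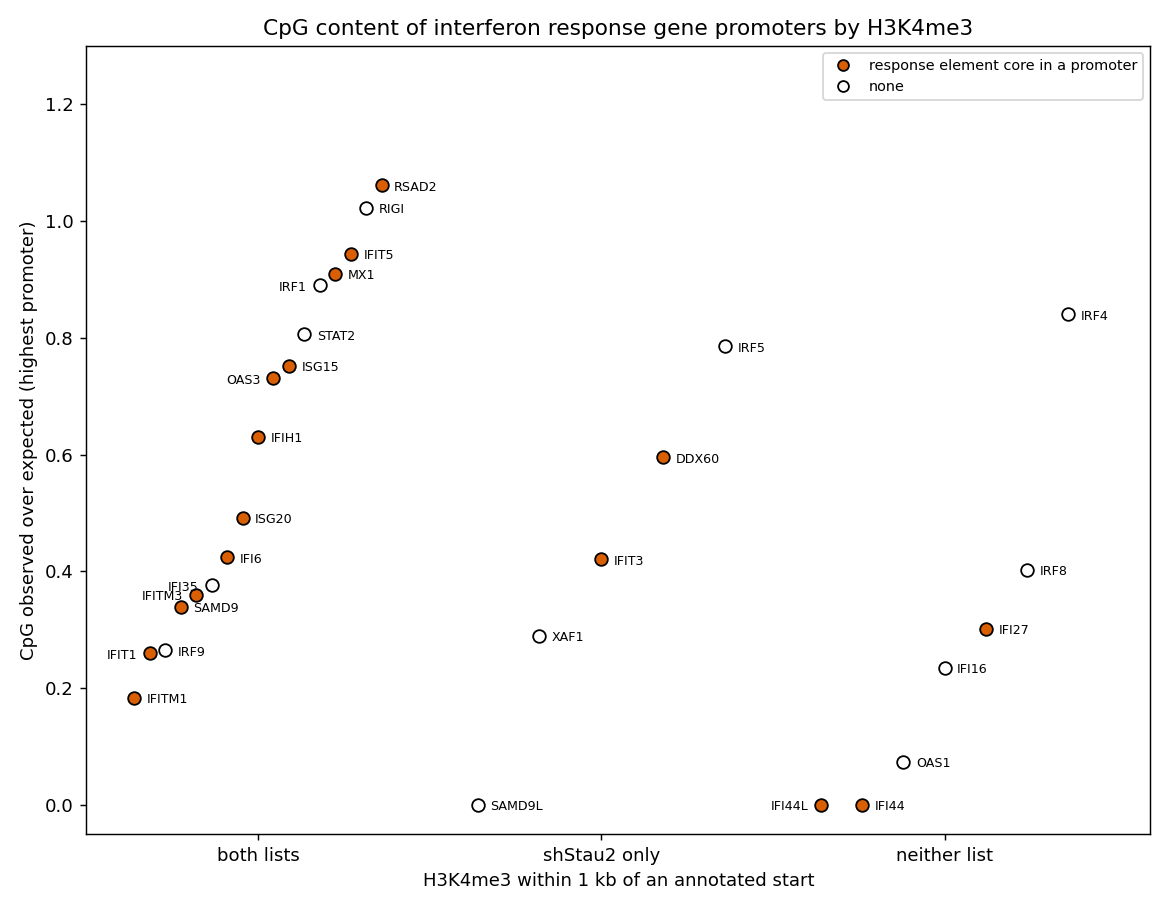
Observed over expected CpG of the highest promoter of each of the 29 genes with a promoter window, by H3K4me3 within 1 kb of a start, with filled points for genes that hold the response element core. The spread along the horizontal axis within a class only separates the points. Filled and open points are mixed in all 3 classes, and the class with no H3K4me3 holds 5 of its 7 genes below 0.310.

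The other genes of the pathway, 81 in 5 lists, gave the surroundings of the set. H3K4me3 was listed under both hairpins at 59, under shStau2 only at 3, under shControl only at 0 and in neither list at 19. Over all genes the shares were 69.6%, 5.55%, 0.0451% and 24.8%, and the 81 genes as a whole were near them. All 9 receptors and Janus kinases had the mark in both lists. Among them JAK1 read 35.9-fold and 69.8-fold, TYK2 read 36.5-fold and 33.0-fold, and IFNLR1, a weak one, read 4.62-fold under each hairpin. All 10 negative regulators also had it in both lists, for example SOCS1 at 31.8-fold and 38-fold. Of 14 genes of nucleic acid sensing 10 had it in both lists, and CGAS, TLR7, TLR9 and ZBP1 had it in neither.

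Of 9 interferon genes, IFNK alone had an H3K4me3 peak in its window, at 13.5-fold and 30.4-fold, and the other 8, IFNB1 and IFNG among them, had none. Whether that peak belongs to IFNK or to a neighbouring gene was not tested. IFNL1 had H3K4me2 in both lists, at 6.14-fold and 6.08-fold. Of 39 further induced genes, 29 had H3K4me3 in both lists, beside 69.6% of all genes, and 7 in neither, beside 24.8%. The chemokines CXCL9, CXCL10 and CXCL11 were among these 7. The guanylate-binding protein genes GBP1 and GBP2 had it under shStau2 only, at 5.33-fold and 7.44-fold, as did LGALS3BP at 6.08-fold. These are 3 of the 39 genes, beside 5.55% of all genes. H3K4me2 could be read for 65 of the 81 genes and was in both lists at 58, beside 83.9% of all genes in the region. It was under shStau2 only at ZBP1, GBP3 and GBP5, with 8.46-fold, 4.14-fold and 3.42-fold, beside 2.57%. It was under shControl only at IFNL2, with 4.16-fold, beside 0.591%, and in neither list at 3 genes, beside 12.9%.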

How the data were processed

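Deposited ChIP-seq peaks of H3K4me2 and H3K4me3 in K562 under the shControl and shStau2 hairpins were analysed, grouped by sample title. Bowtie2 was the aligner and hg38 the build, per the submitters' processing notes. The version of Bowtie2 is not stated there. Per the file headers, the authors called peaks with MACS2 2.1.2 on each library against the input of its hairpin, at a q-value threshold of 0.05, with a fragment length of 200 bases and duplicates removed. The deposited lists hold a pileup signal for each summit and its fold enrichment, a ratio to the local background. The −log10 p-value and −log10 q-value of each peak are the authors' MACS2 output, per the file headers. Pileups were scaled to the smaller library of each pair.

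Gene bodies came from the RefSeq table of GRCh38.p14, where all 38 symbols matched. A peak counted for a gene when it overlapped the window by 1 base, and the strongest peak has the highest fold enrichment. Both H3K4me2 lists end early, at 65507 peaks each, so 60090 shControl peaks were compared with 65507. The genes, the lists of pathway genes and the rules were chosen with earlier results of these data known. All 38 genes were accounted for. A marker of another cell type and a neighbouring gene are not reported here. Full values went to genes whose call differed, the highest folds, the largest covered-base differences and genes with 1 mark or none. Examples from the pathway lists and some values of other genes were chosen after they were seen. No test between hairpins was possible with 1 library per group. The ChIP libraries of 26221869 to 30744332 tags and inputs of 18826946 and 19921064 tags set the precision, which is poorest for weak peaks.

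The calling code was tested on simulated data, where it recovered 100% of 200 planted genes among 19974, which checks the code only. In all 8 kinds of alternative were tried for windows, thresholds and peak merging, and 2 more were added after seeing the data. Python 3.11.15, numpy 2.4.6, pandas 2.3.3 and matplotlib 3.10.9 were used.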

Additional observations from a re-analysis of the deposited data

How the results depend on the processing

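The counts below are interferon response genes, and the cause of each change was not tested. With windows of 1 kb around the start or both gene ends, H3K4me2 was in neither list at 5 genes and its median covered-base difference was 126. With a −log10 q of 10 or more, H3K4me3 was under shStau2 only at 5 genes and in neither list at 11. The 5 were IFIT3 and DDX60 with IFI6, IFIT1 and IFIT2, in place of OAS2, IRF5, XAF1 and SAMD9L. H3K4me2 was under shStau2 only at 2 (IFI27 and OAS2) and in neither list at 5, and 4 genes had H3K4me2 without H3K4me3 under shStau2. With a fold enrichment of 5 or more, H3K4me3 was under shStau2 only at 4 genes (IFIT1, IFIT3, OAS2 and DDX60). It was under shControl only at 1 gene (SAMD9) and in neither list at 10, and H3K4me2 was under shStau2 only at 1 (OAS2) and in neither list at 5. Shares of all genes at these q-value and fold settings are not given here. With equal numbers of peaks, H3K4me3 was under shStau2 only at 2 genes, under shControl only at 2 (ISG20 and SAMD9) and in neither list at 10, and 5 genes had H3K4me2 without H3K4me3 under shStau2. With the raised shStau2 threshold, H3K4me3 was under shStau2 only at 1 gene, under shControl only at 1 and in neither list at 12, and 6 genes had H3K4me2 without H3K4me3 under shStau2. With 1 kb around the start in genes with a known start, chosen after seeing the data, H3K4me3 was in both lists at 17 genes and H3K4me2 at 19, with a median H3K4me2 covered-base difference of 126. Fewer genes enter there by construction. Of the genes with H3K4me3 under shStau2 only, DDX60 kept that call in 8 of 8 alternatives, IFIT3 in 7, OAS2 in 5, and IRF5, XAF1 and SAMD9L in 4 each. No paired analysis was possible because each group has 1 library, and for the same reason no replicate could be left out.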
